A study of Mus musculus with 6 samples.

Results

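The tissue kallikrein gene Klk1 and 9 Klk1b genes of the same cluster on mouse chromosome 7 were followed in testis, 10 of the 55536 genes in the count table. They were chosen by name together with the question of which of them rise in double knockout testes and which do not, so that the values in double knockout libraries are given here as a description. Where a member is said to be called in DKO, this tells which side of the all-gene threshold it fell on and is not evidence for the choice. RNA came from testes of mice aged 4 months on the FVB/NJ background, with 2 mice and so 2 libraries for each of 3 genotypes: wild type FVB/NJ (WT), a Padi2 single knockout (P2KO) and a Padi2/Padi4 double knockout (DKO). Padi2 and Padi4 encode peptidylarginine deiminases, enzymes that convert arginine in proteins to citrulline. In P2KO the coding part of Padi2 exon 1 was replaced by a gene trap cassette. DKO was made from Padi2 knockout embryos by CRISPR/Cas9, with a small frameshifting deletion in exon 1 of Padi4. It is a single homozygous line from 1 founder, which carries the Padi2 allele of P2KO as well, and P2KO and DKO are therefore not independent lines.

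Kallikreins are secreted serine proteases. Klk1 encodes the tissue kallikrein that releases kinins from kininogens, and in the mouse a set of recently duplicated Klk1b genes lies beside it, with products that cut growth factors, binding proteins or prorenin. The group is best known from the submandibular gland, where many members respond to androgen, and Klk1b21, Klk1b24 and Klk1b27 are known from the Leydig cells of the testis, the cells between the seminiferous tubules that make testosterone. Expression of these genes was measured in whole testis, where a larger share of Leydig cells and more RNA per Leydig cell cannot be told apart.

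Libraries held from 21939393 to 27306679 counts on genes. The count of Padi2 was not lower in the libraries labelled P2KO and DKO than in WT and so checks no label. Padi4 had 20 and 43 counts in WT, 11 and 10 in P2KO and 4 and 4 in DKO. All 10 kallikrein genes passed the filter on low counts, which left 20744 genes. A gene was called where its p from edgeR's quasi-likelihood test, adjusted over all these genes, was under 0.05. Testis was marked by its germ cell genes (protamine, transition protein and meiotic genes), 7 genes that summed to between 209465 and 253100 normalized counts, whereas markers of the epididymis summed to at most 13.9 normalized counts in any library.

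All 10 genes lie on the plus strand of chromosome 7 in GRCm38 between 43950664 and 44229618, each with 5 exons, in the order Klk1b8, Klk1b9, Klk1b26, Klk1b27, Klk1b21, Klk1b22, Klk1b16, Klk1b24, Klk1b5 and Klk1. The genes are close copies. Coding sequences of pairs of members were from 81.7% to 95.3% identical, with Klk1 and Klk1b5 at the upper end, and each pair among Klk1b21, Klk1b24 and Klk1b27 was from 92.6% to 93.5% identical. Between these 3 genes and the other 7 members, identity ran from 83.2% to 88.4%. Close pairs were found on other branches too, since Klk1b26 and Klk1b16 shared 92.7% of their coding bases.

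The stretch before the start of transcription is shown for 5 genes, because Klk1b21, Klk1b24 and Klk1b27, picked after their values were seen as the 3 members called higher in DKO against both WT and P2KO, share a run of bases there that the other members do not have. The sequences are the 250 bases upstream of the RefSeq start in GRCm38.p6, plus strand. They lie at chr7:44052040-44052289 for Klk1b27, chr7:44102042-44102291 for Klk1b21, chr7:44187986-44188235 for Klk1b24, chr7:44012428-44012677 for Klk1b26 and chr7:43950416-43950665 for Klk1b8. Capitals mark the longest run common to Klk1b27, Klk1b21 and Klk1b24, and in Klk1b26 and Klk1b8 the stretch that aligns to it.
Klk1b27: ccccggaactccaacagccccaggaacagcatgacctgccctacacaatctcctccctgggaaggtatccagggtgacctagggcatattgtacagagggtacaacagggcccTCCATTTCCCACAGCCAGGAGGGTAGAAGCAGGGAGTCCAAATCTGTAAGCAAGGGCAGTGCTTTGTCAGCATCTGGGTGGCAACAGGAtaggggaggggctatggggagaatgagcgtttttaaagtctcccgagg
Klk1b21: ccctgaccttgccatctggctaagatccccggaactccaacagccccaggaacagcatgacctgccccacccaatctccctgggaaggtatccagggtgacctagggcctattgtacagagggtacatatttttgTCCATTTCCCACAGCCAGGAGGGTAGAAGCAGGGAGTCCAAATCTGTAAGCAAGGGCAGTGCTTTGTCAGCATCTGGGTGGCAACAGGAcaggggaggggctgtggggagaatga
Klk1b24: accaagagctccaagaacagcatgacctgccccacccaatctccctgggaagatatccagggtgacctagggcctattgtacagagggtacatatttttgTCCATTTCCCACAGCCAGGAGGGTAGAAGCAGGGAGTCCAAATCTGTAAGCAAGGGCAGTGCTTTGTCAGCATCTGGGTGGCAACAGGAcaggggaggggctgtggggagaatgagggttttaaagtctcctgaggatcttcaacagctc
Klk1b26: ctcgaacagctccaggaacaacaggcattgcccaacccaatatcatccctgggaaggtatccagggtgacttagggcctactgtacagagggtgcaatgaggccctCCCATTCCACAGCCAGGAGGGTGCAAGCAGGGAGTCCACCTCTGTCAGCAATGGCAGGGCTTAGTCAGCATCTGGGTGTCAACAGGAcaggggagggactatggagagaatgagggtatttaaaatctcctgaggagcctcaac
Klk1b8: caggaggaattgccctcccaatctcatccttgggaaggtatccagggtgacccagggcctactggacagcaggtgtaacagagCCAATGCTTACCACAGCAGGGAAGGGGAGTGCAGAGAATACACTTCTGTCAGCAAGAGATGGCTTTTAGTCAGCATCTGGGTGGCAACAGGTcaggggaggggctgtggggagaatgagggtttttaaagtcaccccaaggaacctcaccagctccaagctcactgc

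The common run is 89 bases long. It was found in the promoters of Klk1b21, Klk1b24 and Klk1b27 and in no other of 32851 RefSeq promoter windows searched on both strands, which included 28 windows of genes named Klk. The aligned stretch matched it at 86.5% of its bases in Klk1b26 and in Klk1b16, at 83.1% in Klk1b5, at 79.8% in Klk1b8, at 78.7% in Klk1b9 and in Klk1b22, and at 66.3% in Klk1, where the window ended inside the stretch. Identity over the 250 bases was taken over the positions that align. Klk1b21 and Klk1b24 were 97.7% identical over 215 aligned positions. The 3 pairs of these genes were from 90.0% to 97.7% identical and the pairs they form with the other 7 members from 75.4% to 84.8%. The run was looked for after the values of the genes had been seen. Klk1, Klk1b5, Klk1b16 and Klk1b22, which also lay higher in both DKO libraries than in the other genotypes, do not have it. The promoters of Klk1b26 and Klk1b16 were themselves 91.2% identical. The part of promoter sequence in the DKO values was not tested.

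Short motifs were looked for in the window from 250 bases before to 50 after the start. The letters TTTAAA, a variant of the TATA box that reads the same on both strands, were found in 9 of 10 members, all but Klk1, and in 13.2% of all promoters. Their position was from 17 to 44 bases before the start in 8 of them. In Klk1b21 they lay 4 bases after it. The RefSeq and Ensembl starts are not the same for all members, which decides what a window holds. The RefSeq start of Klk1b21 is 36 bases upstream of the Ensembl gene start, and those of Klk1b26, Klk1b16 and Klk1b5 are 510, 523 and 529 bases downstream of it, while the other 6 differ by at most 2 bases. AGAACA, a half-site of the glucocorticoid receptor, was found on either strand in Klk1b24 alone among the members and in 19.0% of all promoters. AAGGTCA, the half-site of NR5A1, a receptor that drives steroidogenic genes, was in Klk1b21 and Klk1 and in 4.72% of promoters. AGGTCA, which is part of those letters and is a half-site of several nuclear receptors, was in 8 of 10 members, all but Klk1b26 and Klk1b16, and in 16.3% of promoters.

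**Figure D1:**
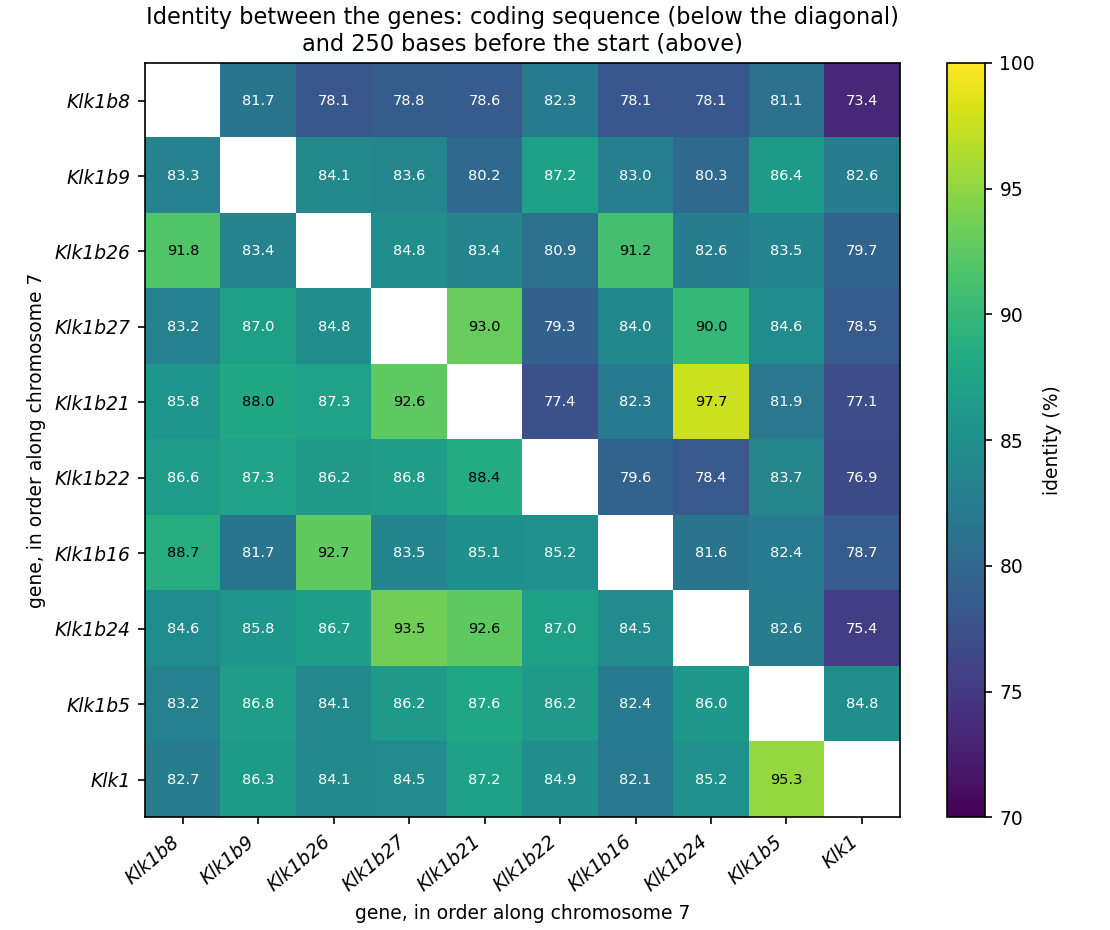
Percent identity between pairs of the 10 genes, in chromosome order on both axes, for coding sequence below the diagonal and for the aligned positions of the 250 bases before the RefSeq start above it. Klk1b21, Klk1b24 and Klk1b27 form a block of 90.0% or more on both sides, and Klk1b26 with Klk1b16 is a close pair on both sides and Klk1 with Klk1b5 in coding sequence.

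In WT testis the members spanned a wide range of levels. Levels of different genes are compared per length, as RPKM, the TMM-scaled reads per kilobase of exon at a common depth. The exon lengths used were 1386, 1387 and 1391 bases for Klk1b26, Klk1b16 and Klk1b5, and from 855 to 1077 in the others. In those 3 genes the Ensembl start lies upstream of the RefSeq start. A shorter length would raise their levels, so their places in the order and their overlaps depend on the annotation. Klk1b8 stood highest at 31.5 and 33.5 in the 2 WT libraries. Klk1b21 followed with a mean of 6.25 ± 1.74 (SD, n = 2), then Klk1b27 with 5.55 ± 1.72, Klk1b24 with 4.39 ± 0.441, Klk1b9 with 4.25 ± 0.184 and Klk1b26 with 3.34 ± 1.12. Neighbours in this order from Klk1b21 down to Klk1b26 overlapped between libraries, so the order of neighbours is not set by these data, while both libraries of Klk1b21 lay above those of Klk1b24, Klk1b9 and Klk1b26. Klk1 lay below them at 1.44 ± 0.290, and Klk1b5, Klk1b16 and Klk1b22 had means of 0.742, 0.567 and 0.431. Only Klk1b5 and Klk1b16 overlapped among these. In DKO, Klk1b8 was still highest, at 29.5 and 30.4. Klk1b27 with 15.8 ± 5.49, Klk1b21 with 15.5 ± 4.42 and Klk1b24 with 10.8 ± 2.76 stood next, and their libraries lay above those of Klk1b9, at 3.67 ± 1.06.

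**Figure D2:**
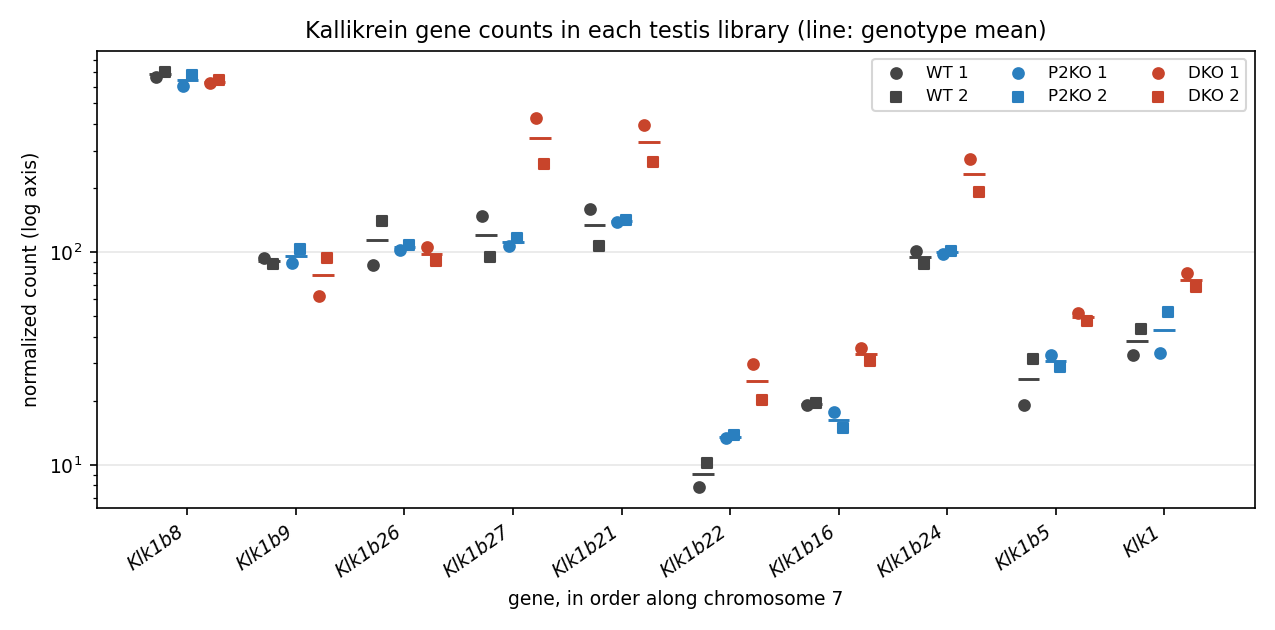
Normalized count of each member on a log axis, with circles and squares for mice 1 and 2 of WT, P2KO and DKO and a line at each genotype mean. Both DKO libraries lie above the 4 others for 7 of the 10 genes, as they do for 11.2% of all tested genes, and Klk1b8, Klk1b9 and Klk1b26 are not among the 7.

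Klk1b21, Klk1b24 and Klk1b27 had the largest differences among the well-counted members. Klk1b27, whose product has been described as a Leydig cell protease with chymotrypsin-like cutting, had 148 and 94.4 normalized counts in WT, 107 and 116 in P2KO and 429 and 260 in DKO. Both DKO libraries were above the other 4, by a fitted log2 fold change of 1.53 ± 0.182 (SE) against WT, or 2.90-fold, and of 1.63 ± 0.182 against P2KO. It ranked 43 among all tested genes by the size of its rise over WT.

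Klk1b21, a protease reported to cut fibronectin and an insulin-like growth factor binding protein, had 160 and 107 normalized counts in WT, 138 and 142 in P2KO and 398 and 264 in DKO. Its log2 fold change was 1.33 ± 0.168 against WT, or 2.51-fold, and 1.25 ± 0.165 against P2KO. Klk1b24 had 101 and 87.9 in WT, 98.5 and 101 in P2KO and 275 and 191 in DKO. Again the DKO libraries stood apart from the rest, and the log2 fold change was 1.31 ± 0.170 against WT, or 2.48-fold, and 1.23 ± 0.167 against P2KO.

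Of the other members, Klk1, the kinin-releasing enzyme, had 32.7 and 43.5 normalized counts in WT, 33.7 and 52.2 in P2KO and 79.5 and 68.9 in DKO. The DKO libraries were the highest, with a log2 fold change of 0.95 ± 0.254 against WT and 0.81 ± 0.248 against P2KO. Klk1b5, the member closest to Klk1 in sequence, had 19.2 and 31.5 in WT, 32.8 and 28.7 in P2KO and 51.7 and 47.7 in DKO, with a log2 fold change of 0.95 ± 0.296 against WT. Its values were near those of Klk1 in size of difference but with fewer reads and a wider error.

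The least counted members were Klk1b16 and Klk1b22. Klk1b16, the gene of gamma-renin, had 19.2 and 19.4 normalized counts in WT, 17.7 and 14.9 in P2KO and 35.4 and 30.7 in DKO. Klk1b22, which encodes an epidermal growth factor binding protein, had 7.89 and 10.2 in WT, 13.3 and 13.8 in P2KO and 29.7 and 20.1 in DKO. Both were higher in each DKO library than in any other. The log2 fold changes against WT were 0.78 ± 0.348 for Klk1b16 and 1.45 ± 0.442 for Klk1b22.

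Klk1b8, Klk1b9 and Klk1b26 did not share the pattern. Klk1b8 had 664 and 706 normalized counts in WT, 604 and 682 in P2KO and 623 and 641 in DKO. The DKO libraries were slightly below WT and inside the range of P2KO, with a log2 fold change of -0.12 ± 0.0889 against WT. Klk1b9, another epidermal growth factor binding protein, had 93.5 and 87.9 in WT, 88.7 and 103 in P2KO and 62.3 and 94.4 in DKO. The DKO libraries fell on either side of both WT libraries, and the log2 fold change of -0.22 ± 0.206 turned to 0.05 without DKO 1. Klk1b26, known for cutting prorenin, had 86.7 and 141 in WT, 103 and 108 in P2KO and 105 and 91.2 in DKO. The DKO values lay between those of the WT mice, and the log2 fold change of -0.23 ± 0.195 turned to 0.18 without WT 2.

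In DKO against WT, 4 of 10 members were called higher, namely Klk1, Klk1b21, Klk1b24 and Klk1b27, and 0 lower, where 2.06% of all tested genes were called higher and 3.22% either way. In DKO against P2KO, 3 of 10 were called higher, the same without Klk1, where 0.607% of all genes were called higher, 0.598% lower and 1.21% either way. These contrasts share the DKO libraries and chose the members, so nothing is read from the counts. In DKO against WT the threshold fell between Klk1, just inside it, and Klk1b22 and Klk1b5, just outside. The call of Klk1 rested on single libraries, since it was lost without WT 1, without DKO 1 or without DKO 2, at log2 fold changes of 0.77, 0.83 and 1.04. Both DKO libraries were above both WT libraries for 7 of 10 members, a pattern that 21.6% of all genes had, and the same 7 were above the P2KO libraries as well, as were 11.2% of all genes. The median log2 fold change of DKO against WT was 0.95 over the 10 members and -0.0048 over all tested genes.

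**Figure D3:**
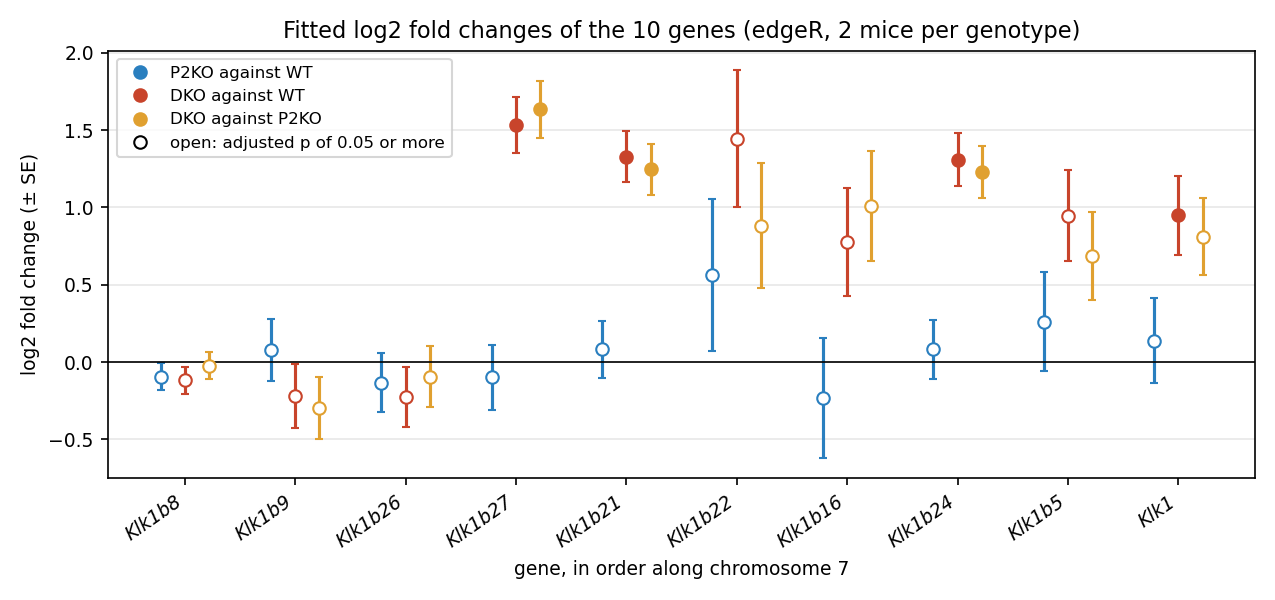
Fitted log2 fold change of each member with its standard error for P2KO against WT, DKO against WT and DKO against P2KO. Filled points passed the all-gene threshold, which only Klk1b27, Klk1b21 and Klk1b24 did against both WT and P2KO, while the points of P2KO against WT lie between -0.23 and 0.56.

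P2KO was compared with WT as well. This contrast is the difference of both DKO contrasts and uses the same WT and P2KO libraries, so it is not independent of the choice of members and is given as a description. In P2KO, 0 of 10 members were called, where 0.198% of all tested genes were called higher and 0.337% either way. At an unadjusted p under 0.05 there was none among the members either, beside 8.57% of all tested genes, and DESeq2 called none of the members and 41 genes in all. With 10 members, a count of 0 is near these backgrounds. The log2 fold changes of P2KO against WT ran from -0.23 ± 0.389 for Klk1b16 to 0.56 ± 0.490 for Klk1b22, with adjusted p from 0.818 to 0.957 in edgeR's quasi-likelihood test. For the 3 genes called higher in DKO against both other genotypes they were 0.08 ± 0.185 for Klk1b21, 0.08 ± 0.189 for Klk1b24 and -0.10 ± 0.209 for Klk1b27. P2KO libraries lay inside or beside the range of the WT libraries for all 3, although the sign of each turned when 1 WT library was left out.

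The 2 DKO mice differed from each other. Klk1b27 was 1.65 times as high in DKO 1 as in DKO 2, with an exact 95% interval from counting error of 1.41 to 1.94, and the ratio was 1.51 (1.28 to 1.77) for Klk1b21 and 1.44 (1.19 to 1.75) for Klk1b24. These intervals cover counting error only. The WT mice differed in a like way for Klk1b27, at 1.56 (1.20 to 2.04), and Klk1b21, at 1.49 (1.16 to 1.92). In P2KO the 2 mice did not differ beyond counting error for any of the 3 genes. Klk1b26 went the other way in WT, at 0.616 (0.462 to 0.816), and Klk1b9 in DKO, at 0.660 (0.472 to 0.919). The spread between mice was thus larger than the counting error for some genes and genotypes and not for others, and with 2 mice it is poorly known.

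The proportions of the 3 genes were compared within each library. The ratio of Klk1b27 to Klk1b21 reads was 0.923 and 0.879 in WT, 0.776 and 0.820 in P2KO and 1.08 and 0.984 in DKO, with both DKO values above the other 4. The exact 95% intervals from counting error were 0.942 to 1.24 in DKO 1, 0.821 to 1.18 in DKO 2, 0.722 to 1.18 in WT 1 and 0.607 to 0.990 in P2KO 1, and the difference between libraries was not tested. The ratio of Klk1b24 to Klk1b21 ran from 0.634 to 0.819 over the 6 libraries, and its DKO values of 0.692 and 0.723 lay inside the range of WT. The ratio of Klk1b27 to Klk1b8, which needs no scaling between libraries, was 0.222 and 0.134 in WT, 0.178 and 0.170 in P2KO and 0.689 and 0.405 in DKO. The ratio of Klk1b26 to Klk1b8 was 0.131 and 0.199 in WT and 0.169 and 0.142 in DKO. All 10 members together had 1332 and 1329 normalized counts in WT, 1237 and 1362 in P2KO and 2088 and 1709 in DKO.

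The members also sorted by place along the cluster. Klk1b8, Klk1b9 and Klk1b26 are the first 3 on the plus strand, up to 61.5 kb from the start of Klk1b8, and the 7 that lay higher in both DKO libraries begin at 102.0 kb with Klk1b27 and end with Klk1. The stretch was not uniform. Klk1b3 and Klk1b4, which are kallikrein genes of the same group and no members, lie between Klk1b24 and Klk1b5. Klk1b3 had 62.0 and 75.9 normalized counts in WT and 49.8 and 85.9 in DKO, with a log2 fold change of -0.04 ± 0.235. Klk1b4 had 0.17 ± 0.495, on fewer reads. Of the 27 other genes named Klk on chromosome 7, 5 were tested, the remaining tested ones being Klk15 and the pseudogenes Klk1b7-ps and Klk2-ps. With edgeR 0 of the 5 were called in any comparison. At most 3.22% of all tested genes were called in a comparison, so 0 of 5 is near the background. Klk1b1 was under the filter, with 1 and 1 counts in WT, 4 and 3 in P2KO and 8 and 4 in DKO.

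**Figure D4:**
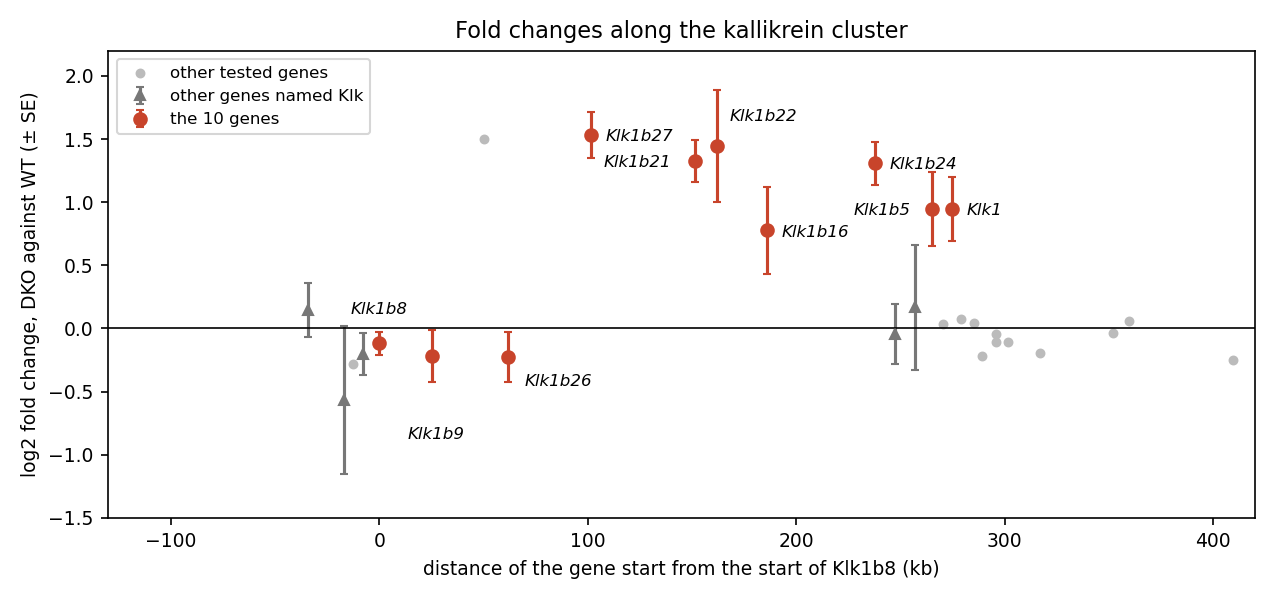
Log2 fold change of DKO against WT by the distance of each gene's start from the start of Klk1b8, in kb. Bars are standard errors. Members from 102.0 kb on lie above 0.7, the first 3 members and the 5 other tested Klk genes lie near or below 0.2, and of the other tested genes, drawn without bars, Gm45195 at 50.1 kb stands at 1.497 and the rest lie near or below 0.

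Genes around the cluster were counted as a measure of the region. From 500 kb before to 500 kb after the members, 34 tested genes that are not named Klk had a median log2 fold change of -0.02 in DKO against WT. With edgeR 0 were called, where 3.22% of all tested genes were called, so 0 of 34 is near the background. The highest of them was the pseudogene Gm45195, between Klk1b9 and Klk1b26, with 3 and 6 counts in WT, 15 and 6 in P2KO and 12 and 14 in DKO. Its log2 fold change of 1.497 ± 0.610 in DKO against WT was near that of Klk1b27 in size, on few reads, and was not called, and it lies among the first 3 members. 1700028J19Rik, the next gene after Klk1, had a log2 fold change of 0.08 with at least 7413 counts in every library.

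Other genes of the kallikrein pathway were read from lists of its substrates, receptors, degrading enzymes and inhibitors. None of the tested genes of these lists was called in any comparison with edgeR: 3 of 5 kininogen, kinin receptor and plasma kallikrein genes were tested, 4 of 5 kinin-degrading peptidases, 5 of 7 inhibitors and 4 of 4 other substrates and partners. At most 3.22% of all tested genes were called in a comparison, so counts of 0 in such short lists are near the background. Kng1, the kininogen that Klk1 cleaves, had 1 count in a single library. Kng2, the other kininogen, had 1 and 13 counts in WT, 6 and 10 in P2KO and 4 and 1 in DKO, with log2 fold changes of -1.44 ± 0.881 in DKO against WT and -1.59 ± 0.859 against P2KO that were not called. Bdkrb2, the constitutive kinin receptor, had 41.7 and 31.5 normalized counts in WT, 26.6 and 21.3 in P2KO and 39.3 and 37.1 in DKO. Ace, which breaks down bradykinin and has a germ cell form, was abundant and had a log2 fold change of 0.14 ± 0.0532 in DKO against WT. Serpina5, an inhibitor of tissue kallikrein, had 0.15 ± 0.0663. Of the reported substrates of Klk1b21, Fn1 (fibronectin) had 0.29 ± 0.107 and Igfbp3 had 0.31 ± 0.233, neither called.

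Receptors and factors that could act on these genes were listed as well, and 0 of 5 were called with edgeR in any comparison, beside at most 3.22% of all tested genes. Nr5a1 had 910 and 841 normalized counts in WT and 919 and 869 in DKO. The WT and DKO values of Nr5a1 overlapped. Foxa3 had 76.6 and 84.2 in WT, 92.2 and 64.9 in P2KO and 98.7 and 86.9 in DKO. Nr3c1, the glucocorticoid receptor gene, had 231 and 236 in WT, 267 and 267 in P2KO and 253 and 259 in DKO. Log2 fold changes in DKO against WT were 0.20 ± 0.201 for Foxa3, 0.13 ± 0.122 for Nr3c1 and 0.04 ± 0.185 for Esr1. Lhcgr, the luteinizing hormone receptor of Leydig cells, had 238 and 276 in WT, 252 and 287 in P2KO and 204 and 193 in DKO, with a log2 fold change of -0.38 ± 0.131 in DKO against WT that was not called.

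Leydig cell markers were read from a list of 9 genes, all tested and none at 0. In DKO against WT, 4 were called higher and 1 lower, where 2.06% of all tested genes were called higher and 1.16% lower. The higher ones were the steroidogenic genes Star at a log2 fold change of 0.51 ± 0.0857, Hsd3b6 at 0.41 ± 0.0715, Cyp17a1 at 0.31 ± 0.0803 and Cyp11a1 at 0.28 ± 0.0762, and the lower one was Hsd3b1 at -0.46 ± 0.0810. Hsd17b3, Insl3, Nr5a1 and Lhcgr were not called, at 0.08, 0.04, 0.03 and -0.38. In P2KO against WT 0 of the 9 markers were called, beside 0.337% of all tested genes. In DKO against P2KO 1 was called higher, Hsd3b6, beside 0.607% of all tested genes. Summed over the list, normalized counts were 19583 and 19206 in WT, 21806 and 19634 in P2KO and 25021 and 20816 in DKO. DKO 1, which was the higher DKO library for Klk1b21, Klk1b24 and Klk1b27, was the higher one for this sum as well.

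Klk1b27 and Klk1b21, among the 3 genes picked for their values in DKO, were also set against that sum. The sum is weighted to its most counted genes. Cyp17a1 had 9205 and 8547 normalized counts in WT, while Insl3 had 123 and 149. It also holds the markers that were called in DKO, both higher and lower. Klk1b27 made 0.754 and 0.492 counts per 100 counts of the Leydig list in WT, 0.492 and 0.591 in P2KO and 1.72 and 1.25 in DKO. Klk1b21 made 0.817 and 0.559 in WT and 1.59 and 1.27 in DKO. The summed level of the 3 genes relative to the WT mean was 3.15 and 2.05 in DKO, beside 1.29 and 1.07 for the Leydig list and 0.889 and 0.930 for Klk1b8, Klk1b9 and Klk1b26. The part that the share of Leydig cells has in the result was not tested.

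**Figure D5:**
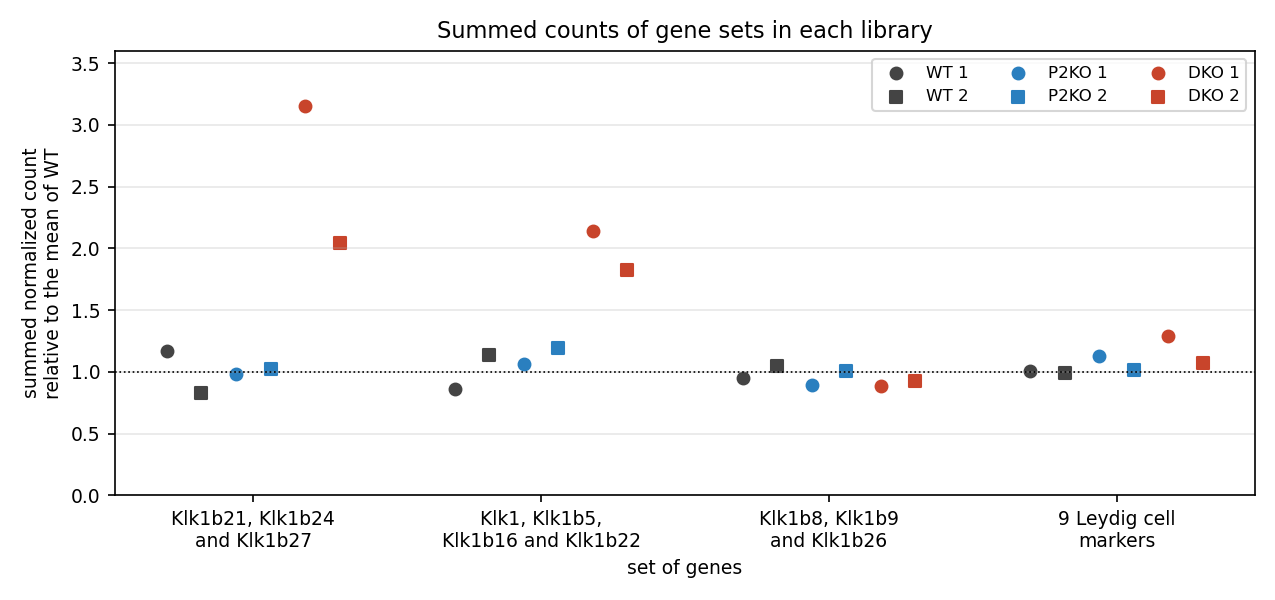
Summed normalized counts of 3 groups of kallikrein genes and of 9 Leydig cell markers in each library, divided by the mean of the 2 WT libraries. Klk1b21, Klk1b24 and Klk1b27 stand at 3.15 and 2.05 in DKO, Klk1, Klk1b5, Klk1b16 and Klk1b22 at 2.14 and 1.83, and the Leydig markers at 1.29 and 1.07.

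Markers of the other cells of the testis were checked in the same way. In DKO against WT, 0 of 8 Sertoli cell, 0 of 4 peritubular myoid, 0 of 5 macrophage and 0 of 4 endothelial markers were called with edgeR. In that comparison 3.22% of all tested genes were called, so counts of 0 in these lists are near the background. The endothelial sum was nonetheless higher in both DKO libraries, from 219 to 242 in WT, 254 to 260 in P2KO and 294 to 318 in DKO. Among 7 germ cell markers, Prm1 at a log2 fold change of -0.22 ± 0.0586 and Tnp1 at -0.25 ± 0.0620, genes of sperm chromatin packing, were called lower, beside 1.16% of all tested genes. Of 4 submandibular markers, Egf had from 174 to 259 counts and Amy1 from 250 to 414 in every library, and neither was called with edgeR in any comparison, whereas Smgc was at 0 in all libraries and Muc19 had at most 2 counts, and of the epididymis markers 0 of 6 passed the filter. The part of cell composition in the kallikrein values was not tested beyond these sums.

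Genes whose pattern was most like that of the 3 kallikreins were named by Pearson's r over the 6 libraries between their log2 CPM and the mean of Klk1b21, Klk1b24 and Klk1b27. Among 15075 genes with a mean of at least 50 counts, the 5 highest were Fancd2 at 0.991, Ccdc73 at 0.988, Scml2 at 0.988, Eloa at 0.988 and Copg1 at 0.986. Their log2 fold changes in DKO against WT ran from 0.11 for Copg1 to 0.31 for Eloa. Eloa was called higher with edgeR in DKO against both WT and P2KO, and the other 4 in neither. Eloa lies on chromosome 4, which also holds the Padi genes, and the part of this place in its values was not tested. Among the other members, r with the mean of the 3 was 0.923 for Klk1b16, 0.869 for Klk1b22, 0.822 for Klk1 and 0.737 for Klk1b5, and was negative for Klk1b8 at -0.50, Klk1b9 at -0.71 and Klk1b26 at -0.39. These values describe 6 libraries in which 2 stand apart, and the points share their depth scaling.

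Reads of such similar genes could be shared between copies. No stretch of 150 bases, the length of a read, in any member's transcript was found unchanged in a transcript of another gene. The median number of mismatches to the nearest Klk transcript ran from 6 in Klk1 to 14 in Klk1b22, and it was 8 in Klk1b27, 9 in Klk1b21 and 7 in Klk1b24. In Klk1, 17.3% of such stretches were within 2 mismatches of another Klk transcript, and in Klk1b5 11.2%, against at most 2.11% in the other members. The reference is the C57BL/6J genome while the mice were FVB/NJ, and strain differences in these genes were not analysed here. On the minus strand, Gm44756 spans Klk1b8 and the start of Klk1b9, and Gm10109 lies opposite Klk1, without overlap of exons.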

How the data were processed

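RNA of 6 testes was sequenced by the authors as poly(A)-selected, strand-specific libraries with paired reads of 150 bases. Per the labels and the study's methods, reads were trimmed with Trim Galore and cutadapt, aligned to GRCm38 and counted on Ensembl genes with STAR, which counts uniquely mapped reads. Which of STAR's counts by strand was deposited is not given in the sources used here, nor are tool versions. The deposited table holds counts, whole numbers without normalization or filter, and each column was mapped to a sample by its name.

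The test was edgeR 4.0.16 in R 4.3.3. The filter was filterByExpr at 10 counts, which 20744 genes passed. Libraries were scaled by TMM and fitted over all 6 libraries with a term for genotype (glmQLFit and glmQLFTest, 3 residual degrees of freedom). Adjustment was by Benjamini-Hochberg across the 20744 genes, with calls at an adjusted p under 0.05. The SE is the absolute log2 fold change divided by the square root of F. Normalized counts are counts brought to a common TMM-scaled library size, the geometric mean over libraries. Total counts ran from 21939393 to 27306679. The fit was tested on simulated data. Positions, exons and coding sequences came from GENCODE mouse release 21 and promoters from RefSeq (GRCm38.p6), in which all 10 members matched. Identity was taken from pairwise alignment with Biopython 1.88.

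The members and the gene lists were chosen with earlier results of these data known. Named genes are the 10 members, the other Klk genes of chromosome 7, the pathway, regulator and cell type lists, and the 5 genes of most like pattern. A gene of the regulator list and a gene of the substrate and submandibular lists are not reported here. Gm45195, 1700028J19Rik and the common promoter run were added after their values had been seen. Alternatives were other scalings (RLE, upper quartile), other filters, a prior count of 2, the replicate number as a block, DESeq2 1.42.0, edgeR on the 2 genotypes compared, and each library left out in turn. Nothing in the labels says more of the mice than that they are 2 biological replicates per genotype, and with 2 against 2 no exact permutation test can pass the threshold.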

Additional observations from a re-analysis of the deposited data

How the results depend on the processing

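Klk1b21 and Klk1b24 passed the threshold in DKO against WT under all 15 alternatives, with log2 fold changes from 0.99 to 1.62 and from 1.01 to 1.54, and Klk1b27 under 14 of 15, from 1.11 to 1.87, the exception being DESeq2 on the 2 genotypes compared. Klk1 lost its call there, and without WT 1, DKO 1 or DKO 2. Klk1b5 and Klk1b22 gained one with no filter on low counts. In DKO against P2KO, Klk1 gained one with edgeR on those 2 genotypes and without WT 1 or WT 2. DESeq2 gave no adjusted p for 18 member values, all in the direction of the main fold change, and these are left out of the counts of calls. The sign of a log2 fold change turned only where a library was left out. Over the 6 fits that leave out 1 library, P2KO against WT ran from -0.19 to 0.44 for Klk1, where the sign turned without WT 1 (-0.042) and without P2KO 2, from -0.029 to 0.69 for Klk1b5, -0.033 to 0.19 for Klk1b9, -0.19 to 0.38 for Klk1b21, -0.025 to 0.18 for Klk1b24, -0.42 to 0.28 for Klk1b26 and -0.41 to 0.23 for Klk1b27. DKO against WT ran from -0.54 to 0.054 for Klk1b9 and from -0.52 to 0.18 for Klk1b26, and DKO against P2KO from -0.11 to 0.073 for Klk1b8 and from -0.21 to 0.0047 for Klk1b26. The cause was not tested.

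Counts of called genes moved more. P2KO against WT had 70 calls, but 140 with no filter, 45 with the replicate block, 41 with DESeq2 on all 6 libraries and 40 on the 2 genotypes, and from 53 to 311 with a library left out. DKO against WT had 668, but 403 and 296 with DESeq2, and from 250 to 1065 with a library left out. Its split of 428 higher and 240 lower became 367 and 322 with upper-quartile scaling, 762 and 303 without WT 1, 217 and 239 without WT 2, where the majority turned, and 129 and 121 without DKO 2. DKO against P2KO had 250, but 162 with DESeq2 on all 6 libraries and 579 with edgeR on the 2 genotypes, and from 108 to 622 with a library left out. Nothing in the labels pairs the mice by replicate number. The deviations of same-numbered libraries correlated at -0.057, 0.057 and -0.05, which shows no shared effect but cannot exclude a pairing. The replicate block gave 555 and 189 calls in the comparisons of DKO and changed no call of a member. Depth limits Klk1b16 and Klk1b22, with at most 37 counts in any library.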
